A study of Mus musculus with 63 samples.

Results

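This account concerns Hmox1 and 7 other genes that are textbook targets of the transcription factor NRF2: Srxn1, Txnrd1, Gclm, Gclc, Nqo1, Slc7a11 and Gsr. They are 8 of the 19938 named genes measured on 63 expression arrays of mouse B-cell lymphoma. The 8 genes were chosen from measured values of these same arrays, with the difference between treated and untreated lymphomas known beforehand. Their levels, fitted differences and calls in that comparison are therefore a description of these arrays under each setting, not a test of the genes, and no p-value is given for them there. Each of the 8 symbols had exactly 1 probe set that names it alone, so no choice between probe sets was needed.

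The lymphomas arose in Emu-myc mice on a C57BL/6 background, in which the Myc oncogene is driven in B-lineage cells by the immunoglobulin heavy chain enhancer. Every array of both groups carries this transgene. In the CTX 4h group (31 arrays), the treatment label names cyclophosphamide, an alkylating chemotherapy drug, and a time of 4 h. A single intraperitoneal dose of 300 mg/kg is stated for 29 of these 31 arrays. The native group (32 arrays) is the untreated reference by the same label. The descriptions are not uniform: the text for the whole series speaks of therapy-naive lymphomas, and the protocols name both transgenic mice and transplanted recipients, so the host of each sample stays unclear and the treatment label alone defines the groups here. Lymph node cells went into RNA extraction without purification, so other cells of the node are part of each sample. In such bulk RNA, fewer cells of a type and less RNA per cell cannot be told apart. Nothing in the labels pairs a treated array with a native array, and the arrays carry different lymphoma numbers, which is the only sign that replicates are separate tumours.

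RNA input was confounded with treatment in part. CTX 4h arrays comprised 29 made from 100 ng of RNA and 2 made from 300 ng, against 15 and 17 native arrays. The 2 CTX 4h arrays at 300 ng are the ones without a stated dose. Within 100 ng, arrays were also split by the first digit of the lymphoma number (number series 1, 8 and 9), which gave 6, 9 and 14 CTX 4h arrays and 7, 3 and 5 native arrays. What the digit stands for is not stated. The B-cell receptor component Cd79b was high in both groups, at 12.95 ± 0.29 in CTX 4h and 13.01 ± 0.24 in native arrays (log2, SD, n = 31 and 32). Array medians lay between 6.53 and 7.11 on the same log2 scale.

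In resting cells NRF2, encoded by Nfe2l2, is bound by KEAP1 and degraded. Electrophiles and oxidants modify KEAP1, and NRF2 then pairs with small MAF proteins at antioxidant response elements in target promoters and enhancers. Hmox1, which encodes the inducible heme oxygenase, is also held down by the heme-sensing repressor BACH1, and it is abundant in macrophages that clear red cells.

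RefSeq promoter windows of GRCm38.p6, reaching 250 bases before to 50 bases after an annotated start, were matched for 5 of the 8 genes: Srxn1, Txnrd1, Gclm, Nqo1 and Slc7a11. Hmox1, Gclc and Gsr had no window in the table. Windows were searched on both strands for an antioxidant response element core (TGACNNNGC), an AP-1 site (TGANTCA) and an ATF4 composite site (TGATGNAAN). The next 3 windows are printed because they differ in which of these letters they hold, while only the first belongs to a gene called in the comparison described further on. Capitals mark every match, on either strand.
Srxn1: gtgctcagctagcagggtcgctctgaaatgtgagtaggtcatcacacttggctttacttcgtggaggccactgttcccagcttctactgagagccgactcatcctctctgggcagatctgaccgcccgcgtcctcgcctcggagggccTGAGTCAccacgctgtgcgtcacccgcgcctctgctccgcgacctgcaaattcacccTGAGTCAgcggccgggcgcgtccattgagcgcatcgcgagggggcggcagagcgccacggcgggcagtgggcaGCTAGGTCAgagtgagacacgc
Gclm: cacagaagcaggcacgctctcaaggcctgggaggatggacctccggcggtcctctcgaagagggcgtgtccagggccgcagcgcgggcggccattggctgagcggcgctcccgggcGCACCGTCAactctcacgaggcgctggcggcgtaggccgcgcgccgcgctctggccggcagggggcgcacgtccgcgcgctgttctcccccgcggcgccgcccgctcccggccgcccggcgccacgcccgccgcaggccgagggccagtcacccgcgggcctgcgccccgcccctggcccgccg
Slc7a11: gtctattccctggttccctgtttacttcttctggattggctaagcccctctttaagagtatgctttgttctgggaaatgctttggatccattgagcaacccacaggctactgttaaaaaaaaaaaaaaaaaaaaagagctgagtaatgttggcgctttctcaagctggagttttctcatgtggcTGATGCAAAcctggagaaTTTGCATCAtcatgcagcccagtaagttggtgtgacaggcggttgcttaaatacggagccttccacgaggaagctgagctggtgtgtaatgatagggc

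The Srxn1 window (chr2:152105274-152105573, plus strand) held 2 AP-1 matches, beginning 102 and 45 bases before the start, and 1 response element core on the opposite strand, beginning 28 bases after the start. The AP-1 match at 45 bases is followed by gc. With those letters it differs from the core only in G in place of C after TGA, a form the search did not cover. The Gclm window (chr3:122245307-122245606, plus strand) held 1 core on the opposite strand, beginning 134 bases before the start. The Slc7a11 window (chr3:50443564-50443863, minus strand) held no core and no AP-1 match, but 2 ATF4 composite matches in opposite orientations, beginning 66 and 48 bases before the start. Of 3 Txnrd1 windows, the one at chr10:82858956-82859255 held a core, beginning 92 bases before its start, and the others held none of these letters, nor did the Nqo1 window. Over all 32851 promoter windows, 12.4% held the core, 7.81% the AP-1 letters and 3.95% the ATF4 letters. A match describes the letters only, and the search says nothing about sites outside a window.

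Hmox1 encodes heme oxygenase 1, which opens the heme ring and releases iron, carbon monoxide and biliverdin. In CTX 4h arrays its level had a lowest value of 9.21, a median of 11.24 and a highest value of 13.02 (log2, 31 arrays), against 8.59, 9.78 and 11.97 in native arrays (32 arrays). The groups overlapped: 28 of 31 CTX 4h arrays lay above the native median and 4 lay above the highest native array, while 1 native array lay above the CTX 4h median. Means were 11.25 ± 0.87 in CTX 4h and 9.80 ± 0.68 in native arrays (SD). With RNA input held in a limma fit over all genes, the difference was 1.68 ± 0.22 on the log2 scale (SE, 95% interval 1.25 to 2.11), a 3.20-fold higher level (interval 2.37 to 4.32). Ordered by the size of the positive difference, Hmox1 ranked 13 among the 19938 genes.

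The extremes of Hmox1 in both groups were all 100 ng arrays. The highest CTX 4h value, 13.02, belonged to lymphoma 9177, and the lowest, 9.21, to lymphoma 9182. In native arrays the highest value, 11.97, belonged to lymphoma 9180 and the lowest, 8.59, to lymphoma 1118. Lymphoma 9180 stood apart from the other native arrays, of which the next reached 10.76.

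**Figure D1:**
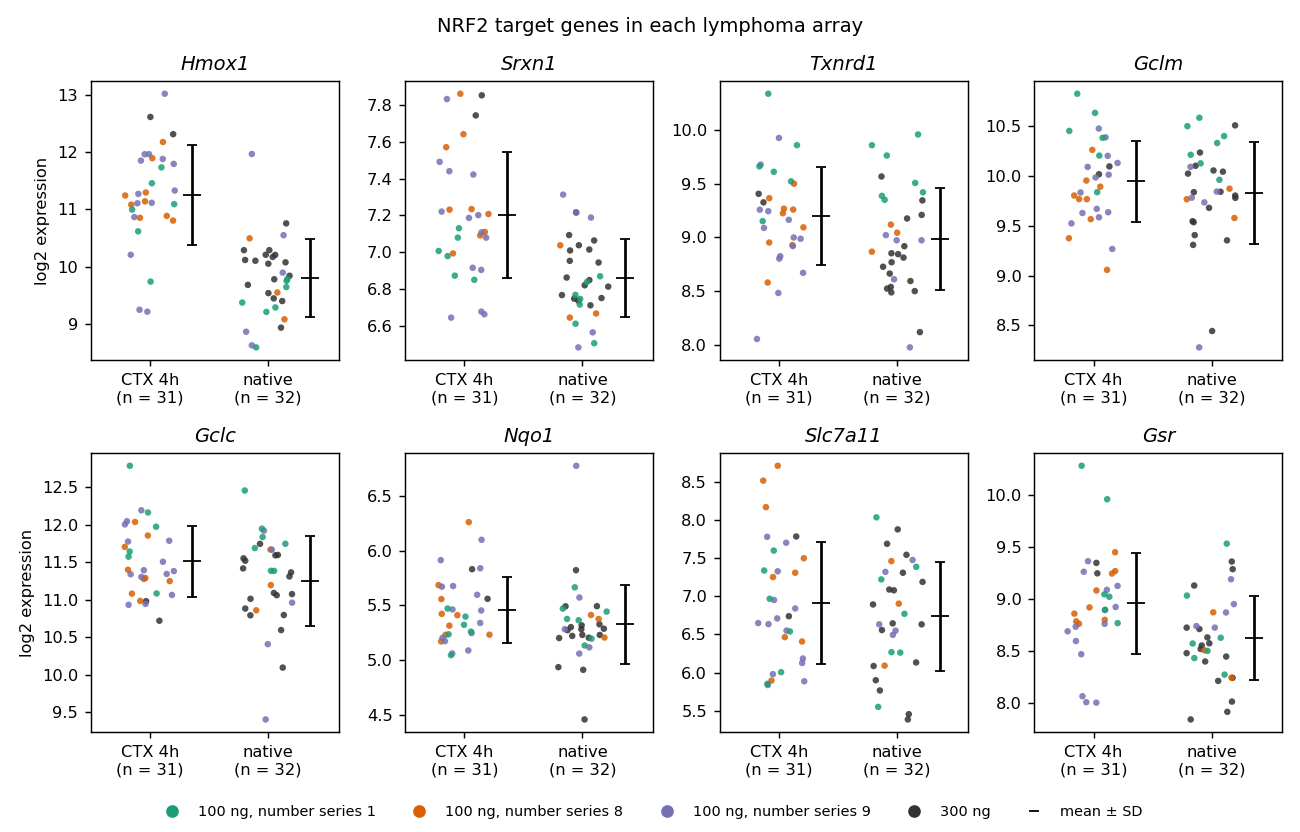
Level of each of the 8 genes (log2 expression, vertical axis) in every CTX 4h array (left, n = 31) and native array (right, n = 32), coloured by RNA input and number series, with the group mean ± SD beside the points. Hmox1 is centred at 11.25 in CTX 4h and 9.80 in native arrays, while the points of Gclm, Gclc, Nqo1 and Slc7a11 overlap over most of their range.

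Srxn1 encodes sulfiredoxin, which restores peroxiredoxins after overoxidation. Its values ran from 6.65 over a median of 7.13 to 7.86 in CTX 4h arrays, against 6.49, 6.83 and 7.31 in native arrays. Of the 31 CTX 4h arrays, 28 exceeded the native median and 9 exceeded every native array. The fitted difference was 0.43 ± 0.08 (log2, SE, interval 0.27 to 0.59), a 1.35-fold higher level. In that all-gene fit a gene is called where its adjusted p is under 0.05, and Hmox1 and Srxn1 were the 2 of 8 that fell among the called genes. Across the array 281 of 19938 genes were called higher (1.41%) and 251 lower (1.26%). Because the genes were picked with this contrast known, nothing is read from that count or from the calls of the 8 genes in the other fits of the same contrast.

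The genes that supply glutathione overlapped widely between the groups. Gclc, the catalytic subunit of the enzyme that makes the first bond of glutathione, averaged 11.51 ± 0.47 in CTX 4h and 11.25 ± 0.60 in native arrays, with a fitted difference of 0.11 ± 0.15 (interval -0.19 to 0.42). Gclm, the modifier subunit of the same enzyme, averaged 9.95 ± 0.40 in CTX 4h and 9.83 ± 0.51 in native arrays, with a fitted difference of 0.05 ± 0.13 (interval -0.22 to 0.31). Neither interval holds a difference as large as the lower bound for Hmox1, 1.25. Slc7a11, the transporter subunit that exchanges glutamate for cystine, had one of the wider ranges: 5.84, 6.74 and 8.72 (lowest, median, highest) in CTX 4h and 5.38, 6.71 and 8.04 in native arrays. Its fitted difference was 0.14 ± 0.22 (interval -0.29 to 0.58), so its lymphomas differed among themselves far more than the groups did.

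Gsr encodes glutathione reductase, which regenerates reduced glutathione. It ran from 8.003 over 8.92 to 10.29 in CTX 4h arrays, against 7.84, 8.57 and 9.54 in native arrays, and 27 of 31 CTX 4h arrays lay above the native median. Its difference of 0.29 ± 0.13 (interval 0.03 to 0.54) was not called over all genes. Txnrd1, the cytosolic thioredoxin reductase, averaged 9.20 ± 0.46 in CTX 4h and 8.98 ± 0.47 in native arrays, with a fitted difference of 0.09 ± 0.13 (interval -0.18 to 0.35). Nqo1, a quinone reductase, averaged 5.46 ± 0.30 in CTX 4h and 5.33 ± 0.36 in native arrays, with a fitted difference of 0.08 ± 0.10 (interval -0.11 to 0.27). Both Nqo1 means lay below the lowest array median, 6.53. How well such low values, and the relations of Nqo1 given below, follow its RNA was not tested. The point estimate was above 0 for all 8 genes with a median of 0.13, while over all genes the median was -0.01 and 9178 of 19938 estimates were positive. The intervals of Gclc, Gclm, Slc7a11, Txnrd1 and Nqo1 include 0. Because the genes were picked with this contrast known, nothing is read from the shared sign.

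The Hmox1 difference was positive within each RNA input and number series. Among 100 ng arrays of number series 1 it was 1.56 ± 0.33 (log2, SE), with means of 10.94 in CTX 4h and 9.38 in native arrays, and 5 of 6 CTX 4h arrays exceeded every native array. In number series 8 it was 1.56 ± 0.45, with means of 11.27 in CTX 4h and 9.71 in native arrays, and no overlap between 9 and 3 arrays. In number series 9 it was 1.22 ± 0.67, with means of 11.20 and 9.98 for CTX 4h and native arrays, and the groups overlapped from 9.21 to 11.97. At 300 ng the 2 CTX 4h arrays had 12.32 and 12.62, against 8.93 to 10.76 in 17 native arrays, a difference of 2.53 with no overlap.

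Srxn1 was less even across the same sets. Its difference was 0.26 ± 0.07 in number series 1, 0.54 ± 0.16 in number series 8 and 0.17 ± 0.20 in number series 9, where 6 of 14 CTX 4h arrays lay above the native median. At 300 ng it was 0.89, with 7.74 and 7.85 in CTX 4h against 6.71 to 7.22 in native arrays and no overlap. Among the other genes, the sign of the Gsr difference was positive in number series 1 (0.62 ± 0.31) and 8 (0.48 ± 0.20) and negative in number series 9 (-0.18 ± 0.15). Txnrd1 was the one other gene with a positive difference in all 4 sets, from 0.08 in number series 1 to 0.57 at 300 ng.

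With only the 100 ng arrays fitted, Hmox1 was called at 1.52 ± 0.26, and Srxn1 was at 0.35 ± 0.09 and not called. In that fit 30 of 19938 genes were called higher (0.15%). With the 4 sets held together as batches, Hmox1 was at 1.61 ± 0.22 and Srxn1 at 0.39 ± 0.08, both called, beside 0.722% of all genes called higher.

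**Figure D2:**
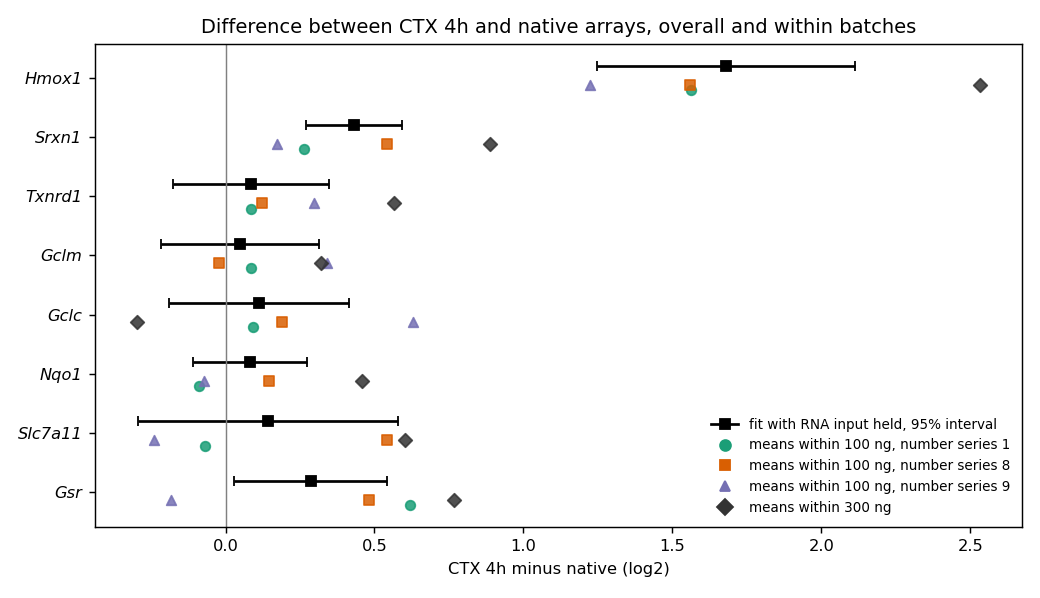
CTX 4h minus native difference of each of the 8 genes (log2, horizontal axis): black squares give the fit with RNA input held and its 95% interval, coloured symbols the difference of group means within each number series of the 100 ng arrays and within the 300 ng arrays. All 4 within-set points of Hmox1 lie between 1.22 and 2.53, whereas those of Gclc, Nqo1, Slc7a11, Gclm and Gsr fall on both sides of 0.

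The 300 ng set holds only 2 CTX 4h arrays, so whether the treatment difference itself varied with RNA input was tested with an interaction term. Both of these arrays lack a stated dose, so the term cannot tell RNA input from dose. None of the 8 genes was called: for Hmox1 the difference at 300 ng exceeded that at 100 ng by 1.01 ± 0.59 (limma adjusted p = 0.999), and for Srxn1 by 0.54 ± 0.21 (unadjusted p = 0.0141, adjusted p = 0.737). Over all genes 4 were called (0.0201%). Among native arrays alone, 300 ng against 100 ng, again none of the 8 was called, beside 0.15% of all genes called in either direction. Txnrd1 had the smallest unadjusted p there, 0.0146, averaging 8.80 ± 0.36 in 17 arrays at 300 ng and 9.19 ± 0.51 in 15 arrays at 100 ng (difference -0.39 ± 0.15, limma adjusted p = 0.271). Hmox1 averaged 9.93 ± 0.43 at 300 ng and 9.64 ± 0.87 at 100 ng (limma adjusted p = 0.627).

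Of 8 regulators of the pathway, 1 was called higher and none lower, with a median difference of 0.03. The called gene was Maff, a small MAF partner, at 6.54 ± 0.21 in CTX 4h and 6.41 ± 0.20 in native arrays (difference 0.21 ± 0.06, limma adjusted p = 0.0409). Nfe2l2 itself averaged 10.40 ± 0.50 in CTX 4h and 10.34 ± 0.51 in native arrays (difference 0.08 ± 0.15, limma adjusted p = 0.823). Keap1 averaged 8.93 ± 0.27 in CTX 4h and 8.99 ± 0.30 in native arrays (difference -0.05 ± 0.08, limma adjusted p = 0.803). The Maff call was lost or joined by another in 23 of 63 fits that each left out 1 array, and at 100 ng Maff was not called, at the same difference of 0.21 (limma adjusted p = 0.194).

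Of 26 measured genes on a further list of NRF2 targets, 2 were called higher and none lower, with a median difference of 0.09. Mgst1, a membrane-bound glutathione transferase, averaged 9.21 ± 0.65 in CTX 4h and 8.86 ± 0.59 in native arrays (difference 0.61 ± 0.17, limma adjusted p = 0.0302). Me1, the cytosolic malic enzyme, which makes NADPH and is abundant in fat, averaged 7.64 ± 1.26 in CTX 4h and 7.06 ± 0.74 in native arrays (difference 0.95 ± 0.28, limma adjusted p = 0.0485). The pentose phosphate genes Taldo1 and Tkt, on the same list, had differences of 0.08 and 0.09 and Pgd -0.15, none of them called. The list's count ranged from 0 to 3 when each array was left out in turn. It was 0 among 100 ng arrays, where Mgst1 had the same difference of 0.61 (limma adjusted p = 0.186) and Me1 0.72 (limma adjusted p = 0.385).

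Genes of heme and iron handling other than Hmox1 showed 1 call in 17, with a median of 0.06. The called gene was Hp, which encodes the hemoglobin-binding plasma protein haptoglobin, at 8.84 ± 1.16 in CTX 4h and 7.94 ± 1.003 in native arrays (difference 1.17 ± 0.30, limma adjusted p = 0.0228). It was not called among 100 ng arrays, although its difference there was 1.15. Blvra and Blvrb, the biliverdin reductases that act on a product of heme oxygenase, differed by 0.06 and -0.02. Among 18 other glutathione and thioredoxin enzymes none was called and the median was 0.05. Gpx4, the phospholipid hydroperoxide peroxidase, came closest with 10.05 ± 0.51 in CTX 4h and 9.85 ± 0.53 in native arrays (difference 0.45 ± 0.14, limma adjusted p = 0.0572). Txnip, an inhibitor of thioredoxin, had a difference of 0.44 ± 0.15 (limma adjusted p = 0.096).

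Lists of 2 other stress responses were read in the same fit. Of 12 measured ATF4 targets, 3 were called higher: Ddit4 at 0.96 ± 0.16 (limma adjusted p = 0.000191), Sesn2 at 0.75 ± 0.15 (limma adjusted p = 0.00285) and Atf3 at 0.63 ± 0.15 (limma adjusted p = 0.0103). The median of this list was 0.08, with 7 of the 12 differences positive and the lowest at -0.24. Among 100 ng arrays Ddit4 was called, at 0.95, while Sesn2 was at 0.56 (limma adjusted p = 0.176) and Atf3 at 0.44 (limma adjusted p = 0.281). Ddit4 and Sesn2 restrain the growth kinase mTORC1, and Atf3 is a stress-induced transcription factor. Of 9 heat shock genes none was called, and the median was -0.05. The smallest p-values there belonged to the chaperone gene Hspa1a at 0.25 ± 0.10 (limma adjusted p = 0.181) and its partner Hsph1 at -0.43 ± 0.19 (limma adjusted p = 0.221).

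**Figure D3:**
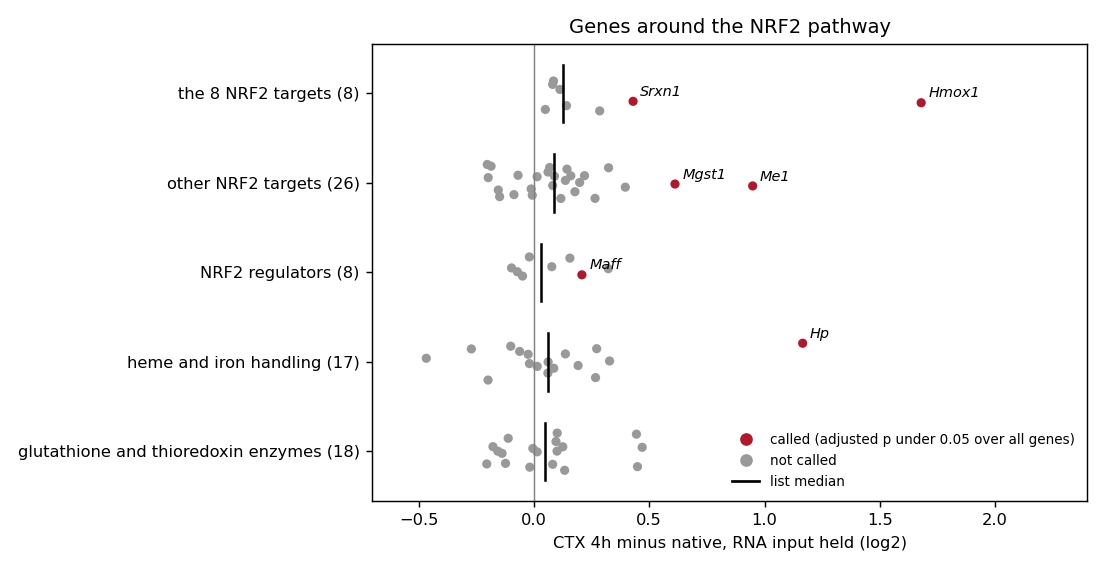
CTX 4h minus native difference with RNA input held (log2, horizontal axis) for each measured gene of the 8 NRF2 targets and 4 related lists, with the number of measured genes in brackets, called genes in red and each list's median as a black bar. The medians lie between 0.03 and 0.13, and the highest values are Hmox1 at 1.68, Hp at 1.17 and Me1 at 0.95.

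Some markers of other cells were called in the same contrast, though most were not. Of 20 macrophage markers 2 were called higher (Cd14 at 0.96 ± 0.14 and Fcgr1 at 0.51 ± 0.12), none lower, and 19 had a positive difference with a median of 0.39. The macrophage score, the mean of the 20 centred markers, ran from -0.98 to 1.37 in CTX 4h and from -0.62 to 0.44 in native arrays, and the 2 treated 300 ng arrays had 0.97 and 1.37. Of 13 stromal and endothelial markers 5 were called higher (the collagens Col1a1, Col1a2 and Col3a1, the matrix proteins Sparc and Lum, from 0.46 to 0.85), and none lower. Of 8 adipocyte markers 2 were called higher (Lpl at 1.17 and Fabp4 at 0.88), of 7 salivary gland genes 2 (Amy1 at 2.41 and Bpifa2 at 2.87), and of 12 T-cell and NK-cell markers 1 was called lower (Ncr1 at -0.42). None of the neutrophil, erythroid or B-cell markers was called. Among 100 ng arrays 1 macrophage marker (Cd14), 2 salivary genes and none of the stromal, adipocyte or T-cell and NK-cell markers were called, and the macrophage median was 0.21. Values of this log2 scale have no true zero, and no marker can be called absent from them.

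With the macrophage score held beside RNA input, the Hmox1 difference was 1.24 ± 0.19 and that of Srxn1 0.30 ± 0.08, both called, where 0.196% of all genes were called higher. Gsr was then at 0.07 ± 0.12, against 0.29 without the score. With a stromal score held in its place, Hmox1 was at 1.28 ± 0.20 and Srxn1 at 0.26 ± 0.07, both called, beside 0.366% of all genes called higher. A score over 60 small RNA genes averaged 0.21 ± 0.80 in CTX 4h and -0.20 ± 0.70 in native arrays. With it held, Hmox1 was at 1.39 ± 0.23 and called, and Srxn1 at 0.31 ± 0.08 and not called, beside 0.12% of all genes called higher. What part such cells or small RNA levels had in the Hmox1 and Srxn1 values beyond these fits was not tested.

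Relations between the genes were measured within each group, over 28 pairs a group and 56 in all, with permutation p-values adjusted over the 56. In CTX 4h arrays 7 pairs passed and in native arrays 5, and whether any relation differed between the groups was not tested. Hmox1 and Srxn1 passed in both by Pearson r. Among treated lymphomas r was 0.636 and Spearman rho 0.599 (permutation p = 7e-05 and 0.00047, adjusted 0.00196 and 0.00826), and r was 0.64 without the 2 arrays farthest from the Hmox1 median. Within number series 8 and 9 of CTX 4h it was 0.754 and 0.6, and within number series 1 it was 0.144. In native arrays r was 0.505 and rho 0.442 (permutation p = 0.00285 and 0.012, adjusted 0.0228 and 0.0762), and r was 0.373 without the 2 farthest arrays. Within the 17 native arrays at 300 ng it was -0.059, and over the 15 native arrays at 100 ng 0.654. Removing batch means gave r = 0.566 in CTX 4h (adjusted permutation p = 0.031) and 0.428 in native arrays (adjusted permutation p = 0.326). The native value then did not pass. With the macrophage score held, r was 0.252 in CTX 4h and 0.504 in native arrays.

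Txnrd1 was the gene with most relations in treated lymphomas. It was related there to Gclc (r = 0.587, rho = 0.448, permutation p = 0.00047 and 0.0127, adjusted 0.0065 and 0.0762) and to Gclm (r = 0.538, rho = 0.582, permutation p = 0.00173 and 0.00059, adjusted 0.0161 and 0.00826). With the 2 farthest arrays left out the values were 0.404 for Gclc and 0.548 for Gclm. With batch means removed, the relation with Gclc was 0.631 (adjusted permutation p = 0.0049) and that with Gclm 0.367 (adjusted permutation p = 0.207). Relations of Txnrd1 with Hmox1 (r = 0.475, rho = 0.371, permutation p = 0.00693 and 0.041, adjusted 0.0431 and 0.139) and with Gsr (r = 0.516, rho = 0.411, permutation p = 0.00341 and 0.0223, adjusted 0.0239 and 0.0974) passed too, and r was 0.212 and 0.277 without the 2 farthest arrays, so both pooled values rested on those arrays. With batch means removed the relation with Hmox1 was 0.676 (adjusted permutation p = 0.0049), with 0.606, 0.408 and 0.741 within number series 1, 8 and 9, and that with Gsr was 0.346 (adjusted permutation p = 0.219). In native arrays Txnrd1 and Gclc had r = 0.572 and rho = 0.618 (permutation p = 0.00058 and 0.00014, adjusted 0.0065 and 0.00392), and r = 0.362 with batch means removed (adjusted permutation p = 0.219). Number series 1 had the highest Txnrd1 means in both groups, at 9.69 in CTX 4h and 9.61 in native arrays.

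Slc7a11 and Gsr were related in CTX 4h arrays, with r = 0.577 and rho = 0.667 (permutation p = 0.00057 and 8e-05, adjusted 0.0065 and 0.00392). The value was 0.596 without the 2 farthest arrays, and 0.514, 0.812 and 0.831 within number series 1, 8 and 9. Srxn1 and Nqo1 in CTX 4h arrays had r = 0.455 and rho = 0.408 (permutation p = 0.00982 and 0.0237, adjusted 0.0458 and 0.0974), with -0.123 within number series 8. In native arrays Gclm and Gclc, the subunits of one enzyme, had r = 0.714 and rho = 0.567 (permutation p = 3e-05 and 0.00086, adjusted 0.00168 and 0.00963). Their r was 0.633 within 300 ng and -0.081 within number series 1. The same pair had r = 0.27 in CTX 4h arrays, which did not pass. Over all 63 arrays many genes outside the 8 were more like Gclm or Gclc, as given with the nearest genes below.

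The native relations of Gclm changed without 2 arrays. Lymphomas 8740 and 9820 had the lowest Myc levels of all 63 arrays, 10.64 and 11.39, where the next array had 12.36. Their Gclm levels were 8.44 and 8.28, against 9.31 to 10.59 in the other 30 native arrays, and their Gclc levels were 10.10 and 9.41, against 10.41 to 12.46. Lymphoma 9820 also had the highest native Nqo1, 6.77, where the next native array had 5.82. In native arrays Gclm had r = -0.519 with Nqo1 (rho = -0.166, permutation p = 0.00808 and 0.362, adjusted 0.0449 and 0.633) and r = -0.452 with Gsr (rho = -0.344, permutation p = 0.00882 and 0.0539, adjusted 0.0449 and 0.168). Without lymphomas 8740 and 9820 these were -0.117 and -0.258, and Gclm with Gclc was 0.435 (adjusted permutation p = 0.0802). With both lymphomas kept and batch means removed, Gclm had -0.639 with Nqo1 and -0.575 with Gsr (adjusted permutation p = 0.0493 and 0.0049). Within native number series 1, which holds neither lymphoma, Gclm had -0.348 with Nqo1 and -0.711 with Gsr. The Hmox1 and Srxn1 relation was 0.623 in native arrays without them.

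**Figure D4:**
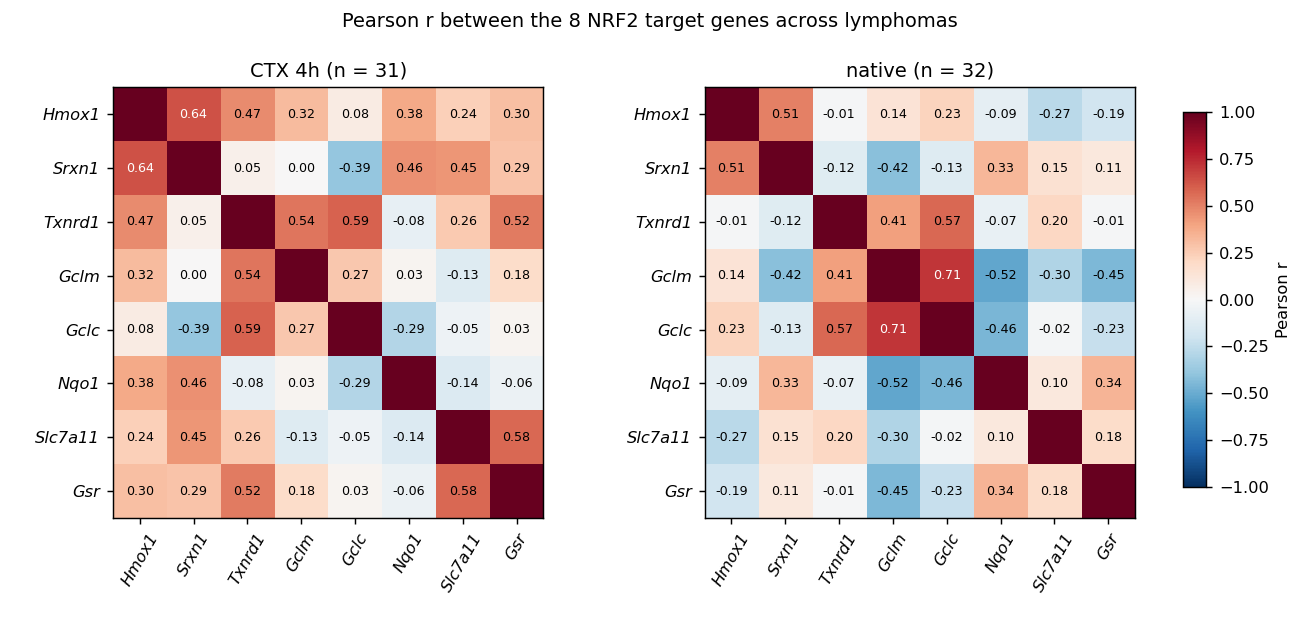
Pearson r between each pair of the 8 genes across CTX 4h arrays (left, n = 31) and native arrays (right, n = 32), on a colour scale from blue (negative) to red (positive). Hmox1 with Srxn1 is 0.64 in CTX 4h and 0.51 in native arrays, and Gclm with Gclc is 0.27 in CTX 4h and 0.71 in native arrays.

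Each gene was also set against 7 scores of cell markers or small RNAs in each group, 112 relations in all, and 26 of them passed. In CTX 4h arrays the macrophage score was related to Hmox1 (r = 0.775, rho = 0.715, both permutation p = 1e-05, the smallest that 100000 resamples can give, adjusted 0.000224). Without the 2 arrays farthest from the median of the score r was 0.695, and with batch means removed it was 0.744. Within number series 8 and 9 it was 0.617 and 0.91, while within the 6 arrays of number series 1 it was -0.526. Srxn1 had r = 0.668 and rho = 0.652 with the same score (permutation p = 3e-05 and 0.0001, adjusted 0.00056 and 0.00176), and Gsr r = 0.602 and rho = 0.643 (permutation p = 0.00048 and 0.00011, adjusted 0.00538 and 0.00176). The within-series values of Srxn1 were 0.157, 0.591 and 0.594 for number series 1, 8 and 9, and those of Gsr were 0.879, 0.567 and 0.73.

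In native arrays none of the 8 genes passed with the macrophage score. Hmox1 had r = 0.349 and rho = 0.255 there (permutation p = 0.0517 and 0.16, adjusted 0.138 and 0.325), with -0.296 within 300 ng, and 0.679 over the 15 arrays at 100 ng. The 2 groups were not compared by a test, and the score spanned a narrower range in native arrays. The lymphomas at the ends of Hmox1 differed in it: the score was 1.10 in lymphoma 9177 and -0.67 in lymphoma 9182 among CTX 4h arrays, and 0.23 in lymphoma 9180 and -0.18 in lymphoma 1118 among native arrays.

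Several other scores passed with several genes. Hmox1 in CTX 4h arrays had r = 0.732 and rho = 0.715 with the stromal and endothelial score (both permutation p = 1e-05, adjusted 0.000224), close to its value with the macrophage score, and 0.699 with batch means removed. It also passed with the adipocyte score (r = 0.535, rho = 0.533, permutation p = 0.00187 and 0.0024, adjusted 0.0123 and 0.0156). That value was 0.467 with batch means removed and did not pass (adjusted permutation p = 0.119). In native arrays Hmox1 passed with the small RNA score (r = 0.525, rho = 0.582, permutation p = 0.00161 and 0.00062, adjusted 0.0122 and 0.00692), where the value with batch means removed was 0.524 (adjusted permutation p = 0.0994). The stromal score passed in CTX 4h arrays with Gsr (r = 0.618) and Slc7a11 (r = 0.462) as well, and the adipocyte score with Nqo1 (r = 0.449). With batch means removed Gsr had 0.667 (adjusted permutation p = 0.00224). Slc7a11 then had 0.409 and Nqo1 0.336 (adjusted permutation p = 0.089 and 0.266), which did not pass. Among treated lymphomas Srxn1 had r = 0.77 with the stromal and endothelial score (rho = 0.779) and r = 0.752 with the adipocyte score (rho = 0.76), each with permutation p = 1e-05 for both measures and adjusted 0.000224. Within number series 1 of CTX 4h those values were 0.28 and 0.126. Gsr in CTX 4h arrays had r = 0.779 and rho = 0.749 with the T-cell and NK-cell score (both permutation p = 1e-05, adjusted 0.000224), with 0.769, 0.825 and 0.758 within number series 1, 8 and 9. Slc7a11 was related to that T-cell and NK-cell score in CTX 4h (r = 0.54, rho = 0.575, permutation p = 0.00164 and 0.00092, adjusted 0.0122 and 0.00853) and in native arrays (r = 0.556, rho = 0.53, permutation p = 0.0009 and 0.00187, adjusted 0.00916 and 0.0131). Hmox1 was inversely related to it in native arrays (r = -0.551, rho = -0.508, permutation p = 0.00119 and 0.00341, adjusted 0.0103 and 0.0191), with -0.67 within 300 ng and -0.561 within number series 1. Txnrd1 was inversely related to the small RNA score in native arrays (r = -0.675, rho = -0.576, permutation p = 5e-05 and 0.00099, adjusted 0.0008 and 0.00853), but with batch means removed that value was -0.147.

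**Figure D5:**
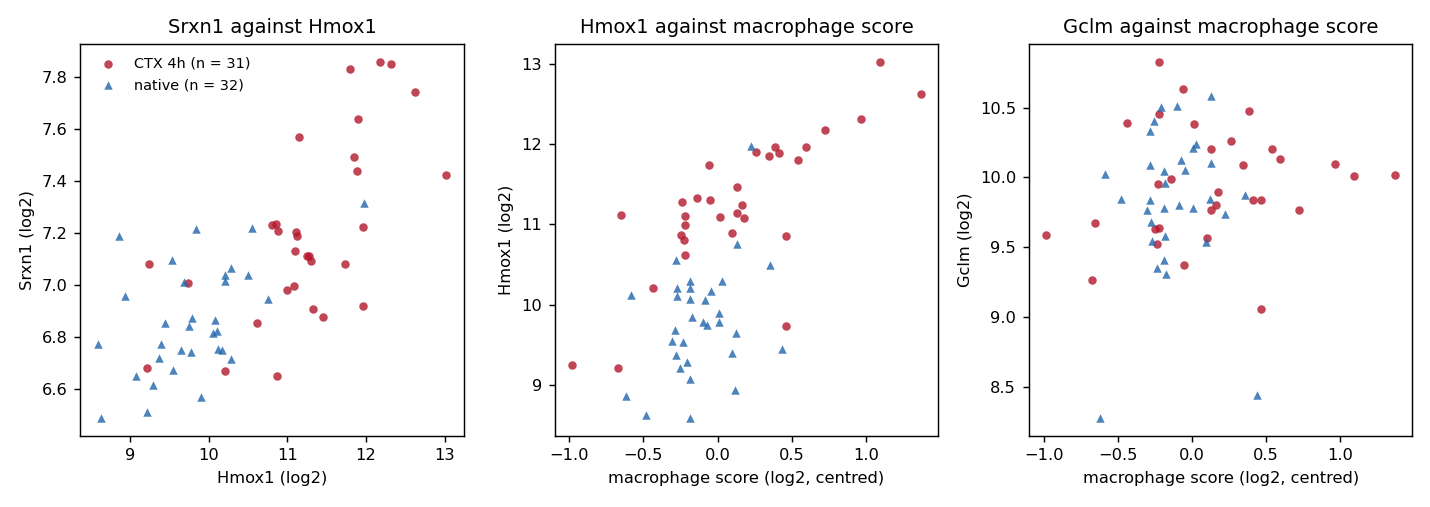
Each point is an array, CTX 4h as red circles (n = 31) and native as blue triangles (n = 32): Srxn1 against Hmox1, Hmox1 against the macrophage score and Gclm against the macrophage score (log2 levels; the score is a mean of 20 centred log2 markers). Hmox1 is related to the score in CTX 4h arrays (r = 0.775), and the value for Gclm is 0.148.

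The genes whose pattern was most like that of each of the 8 were found over all 63 arrays by Pearson r after the mean of each group within each RNA input and number series was removed. These values are a description across genes. For Hmox1 they were Ms4a7 (0.765), the macrophage lysosomal protein Cd68 (0.731), Ttyh2 (0.722), the macrophage surface protein Adgre1 (0.703), the chemokine Ccl3 (0.703), the iron exporter Slc40a1 (0.702), the lysosomal protease Ctsd (0.699) and the matrix protein Thbs1 (0.697). The other NRF2 targets were farther down: of 19937 genes, Txnrd1 ranked 92 in likeness to Hmox1, Srxn1 156, Gclm 451 and Gclc 603. Nqo1, Gsr and Slc7a11 had r of 0.12, 0.12 and -0.01 with it.

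For Srxn1 the nearest genes were the chemokines Ccl2 (0.751) and Ccl9 (0.72), and Gfpt2 (0.726), an enzyme of hexosamine synthesis. For Txnrd1 they were Csrp1 (0.651), Zbtb34 (0.65) and Pcolce (0.642). For Gclm they were Ubqln4 (0.886), Clcc1 (0.859) and Mfsd1 (0.859), and for Gclc the splicing factor Prpf19 (0.817), Aarsd1 (0.798) and the checkpoint kinase Chek1 (0.795). For Slc7a11 they were Dsc3 (0.828), the chemokine Ccl19 (0.805) and Mfge8 (0.792), and for Gsr the signalling adaptor Lcp2 (0.802), Bhlhe40 (0.784) and the cytokine receptor subunit Csf2rb2 (0.783). Nqo1 had Ifna13 (0.681), Mir434 (0.68) and Olfr1501 (0.671) nearest. None of the 8 genes was among the nearest genes named for another of the 8. Of 19937 genes, Gclc ranked 3907 in likeness to Gclm (r = 0.442), and Gclm ranked 3154 in likeness to Gclc. Txnrd1 ranked 2670 in likeness to Gclc (r = 0.478).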

How the data were processed

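Affymetrix whole-transcript arrays of 63 lymph node lymphomas were analysed from the table of log2 expression values the authors deposited. Per the submitters' processing notes these values came from Partek 6.5 with RMA, which corrects background, normalizes between arrays and summarises probes on a log2 scale. Of 35557 probe sets, 21789 had 1 symbol, 1621 several and 12147 none in the platform annotation, and 21698 of the single symbols matched a RefSeq gene. Settings of RMA are not given in the sources used here. Each of 19938 genes was represented by whichever of its single-symbol probe sets averaged highest. Differences came from limma 3.58.1 (R 4.3.3) with treatment and RNA input as terms, Benjamini-Hochberg over all genes and a threshold of 0.05. The moderated fit was tested on simulated data. Correlations used 100000 permutations in Python 3.11.15 (two-sided), Benjamini-Hochberg over each family, with within-series values for sets of at least 6 arrays. Scores are means of centred marker genes. The genes, lists, motifs and tests were chosen with earlier results of these data known. Besides all 8 genes, the text names each list's called genes (up to 5) or, with none called, its 2 smallest p-values. It also names the 8 genes most like Hmox1, the 3 most like each other gene, and the arrays with the highest and lowest Hmox1. Taldo1, Tkt, Pgd, Blvra, Blvrb, Bach1, Nfe2l2 and Keap1 were named outside this rule, after their values were seen. The number of arrays limits the precision of every value.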

Additional observations from a re-analysis of the deposited data

How the results depend on the processing

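As a description, since the genes were chosen on this contrast, the Hmox1 difference ran from 1.22 to 2.53 over 19 alternative settings and was called in 16. The exceptions were the number series fitted alone, at 1.56 (series 1), 1.56 (series 8) and 1.22 (series 9), where no gene at all was called. Of the 8 genes, 2 were called in the fit described, and 1 (Hmox1) with 100 ng arrays only, with the small RNA score held, with a fold change of at least 1.5 required, and among genes above the median level, where Srxn1 was not tested. The count was 0 in each number series alone and 4 with limma array weights (Hmox1, Srxn1, Nqo1 and Gsr), which called 2151 genes higher and 3677 lower. Leaving out each of the 63 arrays in turn always left 2, with Hmox1 from 1.599 to 1.83 and Srxn1 from 0.39 to 0.46.

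The small counts of the pathway lists depended on the setting. Calls fell to 0 for the other targets, the regulators and the heme and iron genes without the RNA input term, at 100 ng only, in each number series alone and with the macrophage, stromal or small RNA score held. They were 0 for the other targets and the regulators with 4 batches held, and 0 for the regulators at 300 ng only, with a common median, among genes above the median level and with the fold requirement. The other targets had 1 call (Mgst1) with a common median, with the mean of all probe sets and with trend and robust moderation, and the glutathione and thioredoxin genes 1 (Gpx4) among genes above the median level. Array weights gave 8 calls for the other targets, 4 for the regulators, 5 for the heme and iron genes and 7 for the glutathione and thioredoxin genes. Without lymphomas 8740 and 9820 these were 5, 2, 3 and 3, in a fit that called 838 genes higher and 1657 lower over the whole array, against 281 and 251 with them. Leaving out 1 array gave ranges of 0 to 3, 0 to 2, 0 to 2 and 0 to 1. The heme and iron count moved without CTX 4h replicates 1, 15 and 16 or native replicates 22, 25 and 29.

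Related pairs in CTX 4h numbered 7, but 3 with Spearman's rho, 4 at 100 ng and 2 with the macrophage score held. In native arrays there were 5, but 2 with rho, without lymphomas 8740 and 9820, or with quantile normalization, 3 with batch means removed or with the macrophage score held, and 0 at 100 ng. The macrophage score was related to 3 genes in CTX 4h and 0 in native arrays, where 100 ng arrays alone gave 1. Causes of these shifts were not tested. No paired analysis was possible because each array carries its own lymphoma number and no label links a treated array with a native one.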
